A study of Drosophila melanogaster with 9 samples.

Results

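The genes described here encode SNARE proteins and the subunits and GTPases of the COPII and COPI vesicle coats in the Malpighian tubules, the renal organ of Drosophila melanogaster. They are 35 of the 17611 genes counted. Each was found by its FlyBase symbol, and all 35 passed the filter on low counts that left 10253 genes tested. They were chosen because SNARE genes, as the pathway column of the deposited table lists them, were higher in yki3SA tubules than in control tubules. The comparison of yki3SA with control is therefore given for these genes as a description: no p-value is printed for a member, and the counts of calls follow from the choice, so nothing is read from them. The members are 22 SNAREs, Slh (an SM protein that binds a Golgi syntaxin), 4 COPII genes and 8 COPI genes.

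SNAREs are small membrane-anchored proteins that zip together across a vesicle and its target membrane and drive their fusion. A fusion complex joins Q-SNAREs, which include the syntaxins and the SNAP-25 type, with an R-SNARE of the synaptobrevin or VAMP type. COPII coats form vesicles that leave the endoplasmic reticulum (ER) for the Golgi, and COPI coats form vesicles that carry material back from the Golgi and between its cisternae. Tubule cells use these routes to place transporters in their membranes and to supply and clear endosomes and lysosomes.

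RNA was sequenced from tubules of 3 groups with 3 libraries each. The driver esg-Gal4, the temperature-sensitive repressor tub-Gal80ts and a UAS-GFP reporter were present in all flies. ITP-i flies had 2 further transgenes, UAS-Yki-3SA and UAS-ITP-i, where Yki-3SA is an active Yorkie (a growth regulator) and ITP-i an RNAi construct for the gene of the ion transport peptide ITP. The yki3SA flies had UAS-Yki-3SA alone. Control flies had neither, so no group had a neutral RNAi transgene. The esg driver acts in progenitor cells of the gut and in stem cells of the tubule. Virgin flies were held at 18 °C for 6 to 8 days, and the transgenes were then induced at 29 °C for 8 days. The RNA came from 80 tubules per genotype, and the labels do not say whether the libraries of a group came from separate cultures or dissections. The p-values then measure the spread between these libraries, which may be technical. Titles of control and yki3SA libraries say that they were re-analysed, which those of ITP-i libraries do not, so a batch and the ITP-i genotype cannot be told apart.

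Total counts ran from 34640437 to 49338340 per library. Levels are CPM, counts scaled to library size with TMM factors. ITP averaged 58.6 ± 6.21 CPM in ITP-i, 68.4 ± 10.4 CPM in yki3SA and 37.0 ± 6.70 CPM in control tubules (SD, n = 3 each), and ITP-i was not called against yki3SA (log2 fold change -0.22, edgeR adjusted p 0.348). The ITP gene was called higher than in control in ITP-i (0.67, edgeR adjusted p 0.027) and in yki3SA (0.89, 0.00302). Its call in ITP-i against control was lost in 5 of 20 alternative fits. Whole tubule RNA does not check a knockdown driven in esg cells. The yki gene had 77.9 CPM in ITP-i, 83.0 CPM in yki3SA and 73.3 CPM in control tubules on average. Markers of the main cell types of the tubule were present in every library: 8 principal cell genes summed to 9693 to 11364 CPM in ITP-i, 7907 to 9982 CPM in yki3SA and 11599 to 13256 CPM in control, and 6 stellate cell genes to 976 to 1033 CPM in ITP-i, 927 to 1078 CPM in yki3SA and 1231 to 1417 CPM in control. The principal cell genes did not move together. Uro was higher in ITP-i than in yki3SA and in control (log2 fold changes 1.39 and 0.91, edgeR adjusted p 0.0034 and 0.031). Irk3 was lower than in control in ITP-i and in yki3SA (-1.24 and -1.48, edgeR adjusted p 0.000179 and 3.29e-05). CapaR was lower in yki3SA than in ITP-i and in control (edgeR adjusted p 0.0172 and 0.00707), and the others had no call. Summed markers of other tissues differed between the groups. The 8 fat body genes summed to 2003 to 3688 CPM in ITP-i, 175 to 354 CPM in yki3SA and 2435 to 5788 CPM in control libraries, with Lsp2 below 0.5 CPM throughout. Of these, 5 genes were called higher in ITP-i than in yki3SA, and 1, Obp99b, was lower (log2 fold change -3.37, edgeR adjusted p 0.0355). Obp99b averaged 0.108 CPM in ITP-i and 1.15 CPM in yki3SA. Of all genes tested 10.6% were called higher and 10.1% lower in that comparison. The 11 gut enterocyte genes summed to 149 to 381 CPM in ITP-i, 15.5 to 92.9 CPM in yki3SA and 327 to 1031 CPM in control, with Npc2e below 0.5 CPM. The 9 ovary genes summed to 50.2 to 156 CPM in ITP-i, 6.09 to 50.4 CPM in yki3SA and 139 to 266 CPM in control, and the 7 hemocyte genes to 36.2 to 69.7 CPM in ITP-i, 27.6 to 36.5 CPM in yki3SA and 66.9 to 114.6 CPM in control. Most of the hemocyte sum came from vkg and Col4a1, with means of 33.7 and 46.2 CPM in control. Pxn and Sr-CI had higher means in ITP-i (5.04 and 1.70 CPM) than in control (2.22 and 0.637 CPM), with neither difference called. Hml averaged 5.22 CPM in ITP-i, 4.05 CPM in yki3SA and 4.29 CPM in control. The 9 muscle genes summed to 667 to 827 CPM in ITP-i, 455 to 626 CPM in yki3SA and 530.3 to 624 CPM in control, with TpnC41C below 0.5 CPM. The part of these other tissues in the values below was not tested. In whole tubules, fewer cells of a type and less RNA per cell cannot be told apart.

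Most of the 35 genes had their highest mean level in yki3SA tubules, the group by which they were chosen. The 23 SNARE and Slh genes summed to 986, 999 and 984 CPM in the ITP-i libraries, 1331, 1223 and 1160 CPM in the yki3SA libraries and 840, 906 and 822 CPM in the control libraries. No ITP-i library overlapped a yki3SA or a control library in this sum, and ITP-i lay between the other groups. The 8 COPI genes summed to 1208, 1231 and 1197 CPM in ITP-i, against 1346, 1335 and 1216 CPM in yki3SA tubules and 1149, 1172 and 1118 CPM in control. One yki3SA library of this sum lay inside the ITP-i range, and ITP-i lay above control. The 4 COPII genes summed to 711 to 748 CPM in ITP-i, 793 to 852 CPM in yki3SA and 794 to 807 CPM in control. That sum was lowest in ITP-i and overlapped between yki3SA and control. Sar1 held the largest part of it, with means of 352 CPM in ITP-i, 367 CPM in yki3SA and 439 CPM in control. In ITP-i against control, 2 of the 4 genes had fitted values above 0 and 2 below, with a median of -0.018 and no call. The sum therefore does not show a fall of the COPII genes as a class.

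**Figure D1:**
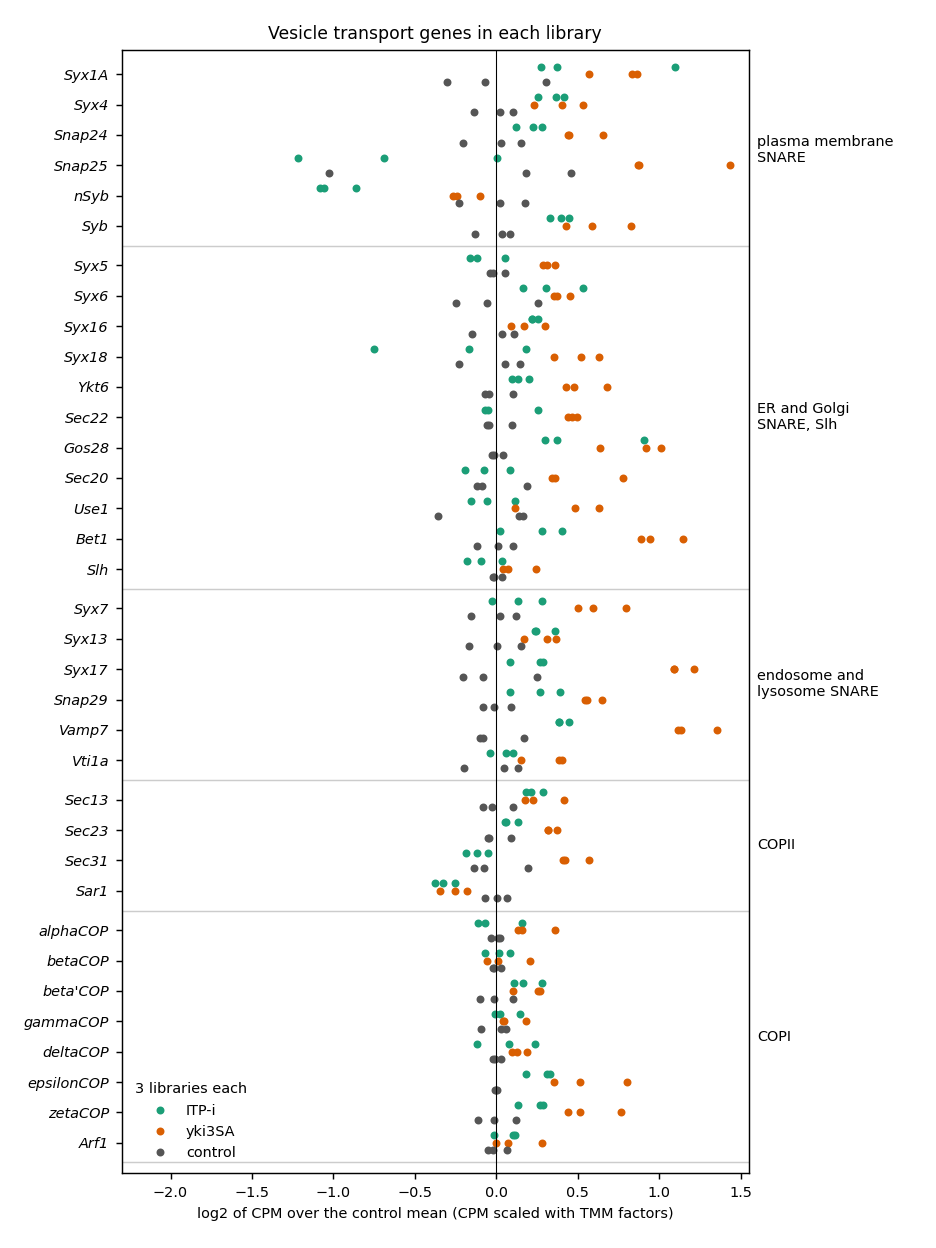
Level of each of the 35 genes in each of the 9 libraries, as log2 of its CPM over the control mean (x axis), with genes grouped by role down the page and 1 point per library. The yki3SA points of Vamp7, Syx17 and Bet1 stand apart on the right, those of the COPI subunits other than epsilonCOP and zetaCOP lie near the control points, and nSyb has its ITP-i points on the left. The yki3SA points of Snap25, which was close to the limit of detection, also lie on the right. Its lowest ITP-i point lies further left than those of nSyb.

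In ITP-i tubules, set against yki3SA tubules, 10 of the 35 genes were lower and none was higher at an adjusted p under 0.05. Of all genes tested, 10.1% were called lower and 10.6% higher. The 10 comprised 9 of the 23 SNARE and Slh genes (nSyb, Syx5, Syx18, Ykt6, Sec22, Bet1, Syx7, Syx17 and Vamp7), 1 of the 4 COPII genes (Sec31) and none of the 8 COPI genes. At an unadjusted p under 0.05, 17 members were lower and none was higher, where 18.8% of all genes tested were lower and 17.5% higher. DESeq2 also called no member higher. The median log2 fold change was -0.29 over the 35 genes, -0.39 over the 23 SNARE and Slh genes, -0.16 over the COPII genes and -0.06 over the COPI genes, against -0.04 over all genes tested. All ITP-i libraries lay below all yki3SA libraries for 20 of the 35 genes, as they did for 22.6% of all genes tested, and above them for none, as against 19.2% of all genes tested. The yki3SA libraries also entered the comparison by which the members were chosen, so a low ITP-i value relative to yki3SA is in part a property of that choice. With scaling to total counts, 21 members were lower, while the median of all genes tested moved to -0.24 and 28.2% of all calls were higher, against 51.2% with TMM factors. With upper-quartile scaling 6 members were lower, and 63.1% of all calls were higher. The count also fell in fits without 1 library, which hold fewer samples. It was 5 without yki3SA library 1, yki3SA library 2 or ITP-i library 1, and 6 without ITP-i library 2. The count of all genes called lower, 1037 with all libraries, also fell in every fit without 1 library, so the drop is not particular to the members.

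**Figure D2:**
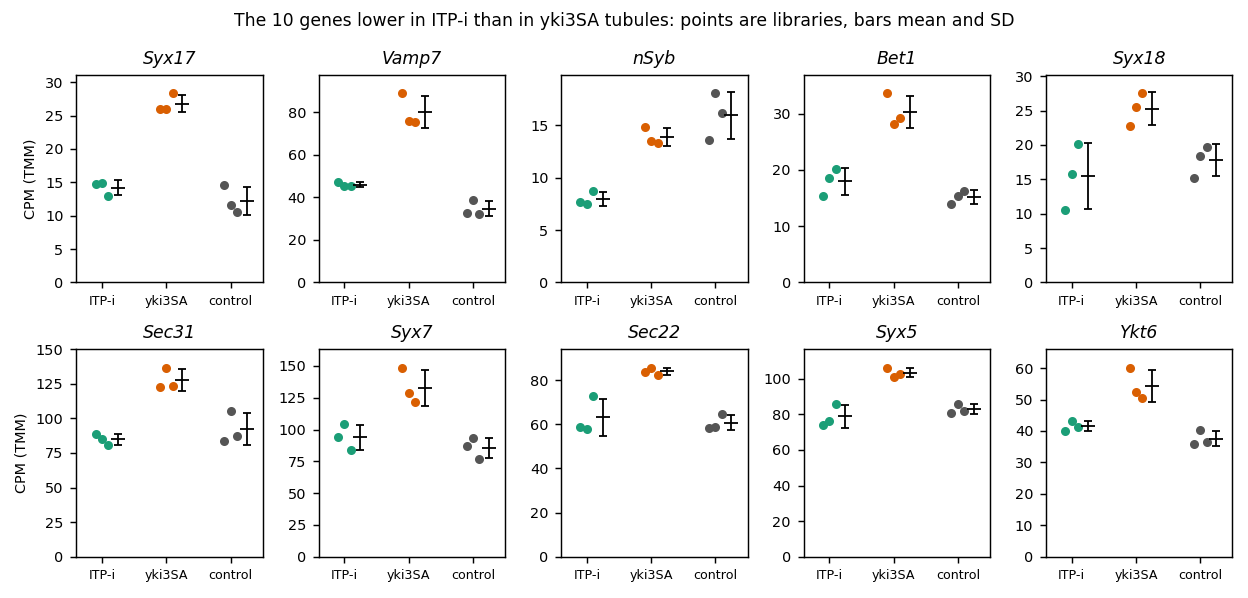
CPM in each library for the 10 genes that were lower in ITP-i than in yki3SA tubules (y axes start at 0), with points for libraries and bars for the mean and SD of 3 libraries. For Vamp7 the ITP-i libraries lie between the control and the yki3SA libraries, and for nSyb the ITP-i libraries lie below both groups.

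In ITP-i tubules set against control tubules, 1 member was higher (Vamp7) and 1 was lower (nSyb), where 6.37% of all genes tested were called higher and 4.14% lower. At an unadjusted p under 0.05, 9 members were higher and 2 lower, where 13% and 11.1% of all genes tested were. All ITP-i libraries lay above all control libraries for 10 members (15.9% of all genes tested) and below them for 2 (14.8%). The median log2 fold change of the 35 genes was 0.14, against 0.001 over all genes tested. The control libraries, too, entered the comparison that chose the members. In yki3SA tubules set against control tubules, the comparison used for the choice, the counts are given as a description only. By edgeR 17 of the 35 genes were called higher (13 SNAREs, 2 COPII and 2 COPI genes) and none lower, where 16.2% of all genes tested were called higher and 14% lower, 30.1% in all. At an unadjusted p under 0.05, 22 members were higher and 1 was lower in yki3SA, where 23% of all genes tested were higher and 18.4% lower, and DESeq2 called 1 member lower. The yki3SA libraries lay above all control libraries for 28 members (26% of all genes tested) and below them for 1 (19.8%). The median log2 fold change was 0.42 over the members and 0.07 over all genes tested. The 3 comparisons came from 1 edgeR fit of all 9 libraries.

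**Figure D3:**
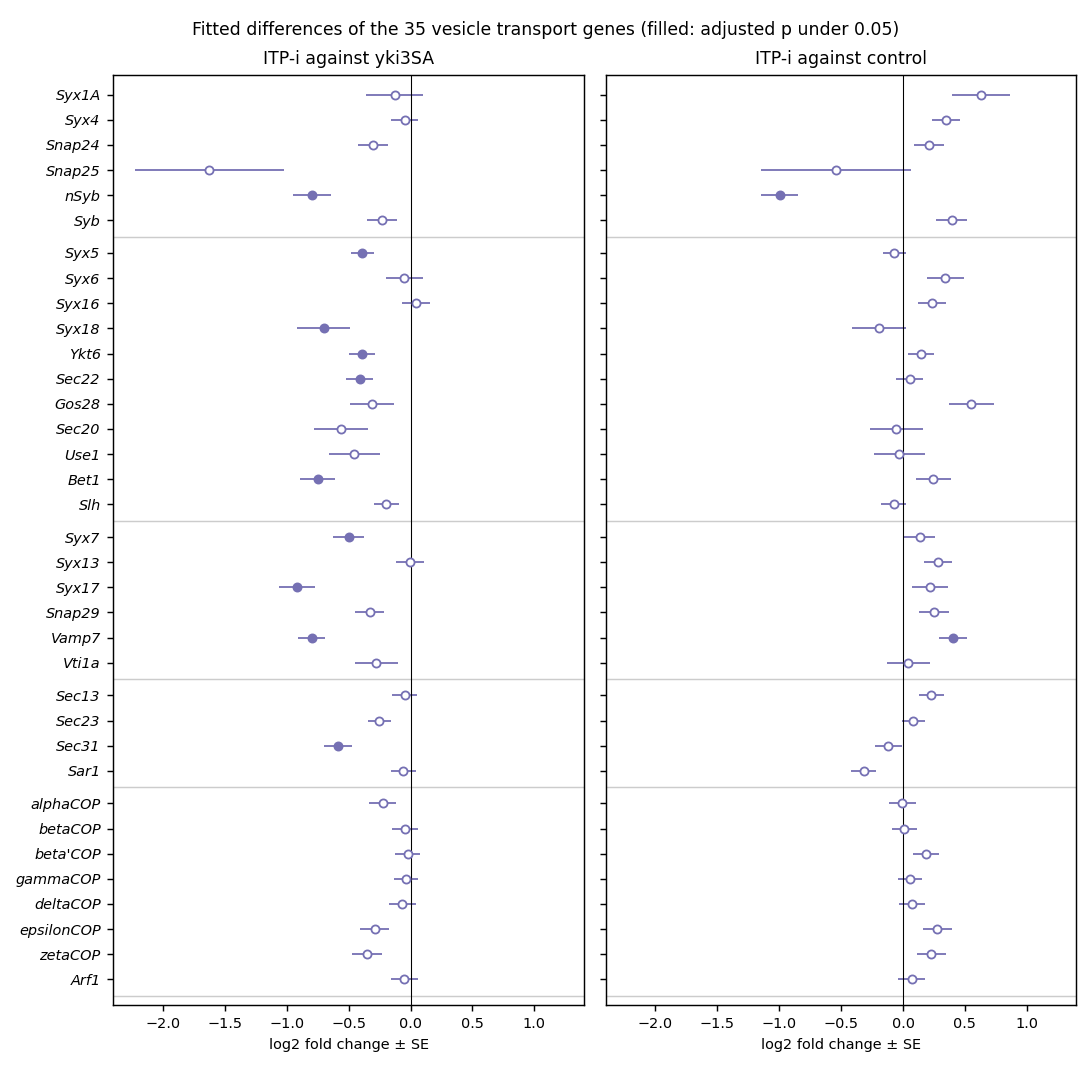
Log2 fold change ± SE from the edgeR fit for each of the 35 genes, ITP-i against yki3SA (left) and ITP-i against control (right), with filled points for an adjusted p under 0.05. On the left 10 points are filled, all below 0, and on the right only nSyb, below 0, and Vamp7, above 0.

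The SNAREs of endosomes and lysosomes held the members with the largest yki3SA values relative to control. Vamp7, the R-SNARE of late endosomes and lysosomes, had 47.4, 45.3 and 45.3 CPM in ITP-i, against 89.0, 76.2 and 75.3 CPM in yki3SA tubules and 32.9, 39.0 and 32.4 CPM in control libraries. The 3 groups did not overlap, with yki3SA highest and control lowest. Vamp7 was lower in ITP-i than in yki3SA (log2 fold change -0.80 ± 0.11, SE, edgeR adjusted p 0.00146) and higher in ITP-i than in control (0.40 ± 0.11, adjusted p 0.0475). The log2 fold change of yki3SA over control was 1.20. The call against yki3SA held in all 20 alternative fits, with adjusted p up to 0.01065. The call against control did not: it was lost without control library 1 or 3, without yki3SA library 2 or 3 and without any 1 ITP-i library (adjusted p 0.06675 to 0.18), without both tumour libraries numbered 3 (0.087), and with DESeq2 size factors, upper-quartile scaling, no filter, a replicate block or only the 2 groups compared (0.0564 to 0.0705). On the annotation, 7.32% of the exon bases of Vamp7 are shared with Marc on the other strand. Marc was higher in ITP-i than in yki3SA (log2 fold change 0.74, adjusted p 0.0102, edgeR), the opposite direction to Vamp7. The strand setting of the counting is not given in the sources used here, so reads of overlapping genes cannot be told apart.

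Syx17, the syntaxin that autophagosomes use to fuse with lysosomes, had 14.8, 14.9 and 12.9 CPM in ITP-i, against 26.0, 26.0 and 28.3 CPM in yki3SA tubules and 14.6, 11.5 and 10.6 CPM in control libraries. Every yki3SA library was above every other library, and ITP-i overlapped control. Syx17 was lower in ITP-i than in yki3SA (log2 fold change -0.92 ± 0.15, edgeR adjusted p 0.00264), which is 0.53 times the yki3SA level, and this call held in all 20 alternatives. Against control the difference of ITP-i was 0.21 ± 0.15 (edgeR adjusted p 0.433), and the yki3SA value over control was 1.13. Snap29, the SNAP-25 type partner of Syx17 and Vamp7 in that fusion, averaged 21.1 ± 2.22 CPM in ITP-i, 26.6 ± 1.08 CPM in yki3SA and 17.7 ± 1.08 CPM in control tubules. Its libraries did not overlap between ITP-i and yki3SA, but the difference did not pass the test (log2 fold change -0.33 ± 0.12, edgeR adjusted p 0.0773).

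Syx7, a syntaxin of early endosomes, had 93.9, 104 and 84.1 CPM in ITP-i, against 149, 129 and 121 CPM in yki3SA tubules and 86.7, 93.1 and 76.8 CPM in control libraries. The yki3SA libraries were the 3 highest, and ITP-i and control overlapped. Syx7 was lower in ITP-i than in yki3SA (log2 fold change -0.50 ± 0.12, edgeR adjusted p 0.0208). The call was lost without yki3SA library 1 or 2, without ITP-i library 1 or 3, and without both tumour libraries numbered 3 (edgeR adjusted p 0.056 to 0.0759). Syx13, another endosomal syntaxin, averaged 48.3 ± 2.32 CPM in ITP-i and 48.4 ± 3.33 CPM in yki3SA, with 39.7 ± 4.37 CPM in control. Its ITP-i and yki3SA libraries overlapped, and both groups lay above every control library. Vti1a, a Q-SNARE of endosomes and the trans-Golgi, averaged 6.35 ± 0.32 CPM in ITP-i, 7.69 ± 0.73 CPM in yki3SA and 6.17 ± 0.72 CPM in control, and was called in neither test. It shares 34% of its exon bases with RabX6.

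Of the 11 members of the ER and Golgi, which include the trans-Golgi syntaxins and Slh, 5 were lower in ITP-i than in yki3SA tubules, where 10.1% of all genes tested were. That count was 1 without yki3SA library 1 or 2 or ITP-i library 1 or 2 and with upper-quartile scaling, 2 without yki3SA library 3, and 3 without control library 3. Bet1, a Q-SNARE of vesicles between ER and Golgi, had 15.4, 18.5 and 20.1 CPM in ITP-i, against 33.6, 28.1 and 29.3 CPM in yki3SA tubules and 14.0, 15.3 and 16.3 CPM in control libraries. Each yki3SA library was above all others, and ITP-i overlapped control. Bet1 was 0.594 times as high in ITP-i as in yki3SA (log2 fold change -0.75 ± 0.14, edgeR adjusted p 0.00577), in all 20 alternatives. The log2 fold change of yki3SA over control was 0.996, and that of ITP-i over control was 0.25 (edgeR adjusted p 0.332). Bet1 shares 20.9% of its exon bases with Max on the other strand. Max had a log2 fold change of -0.39 in ITP-i against yki3SA (edgeR adjusted p 0.0509).

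Its partners in ER to Golgi fusion showed smaller differences. Syx5, the Golgi syntaxin, had 74.0, 76.4 and 86.0 CPM in ITP-i, against 106, 101 and 103 CPM in yki3SA tubules and 80.7, 86.0 and 81.6 CPM in control libraries. Sec22, an R-SNARE of the same route, had 58.7, 57.9 and 72.6 CPM in ITP-i, against 83.8, 85.6 and 82.3 CPM in yki3SA tubules and 58.5, 59.0 and 64.9 CPM in control. Ykt6, a lipid-anchored R-SNARE of the Golgi and of autophagosomes, had 40.1, 43.1 and 41.2 CPM in ITP-i, against 60.1, 52.3 and 50.5 CPM in yki3SA tubules and 35.8, 40.4 and 36.5 CPM in control. For all 3 genes the yki3SA libraries were the highest and ITP-i overlapped control. The log2 fold changes of ITP-i against yki3SA were -0.39 ± 0.09 for Syx5 (edgeR adjusted p 0.0171), -0.41 ± 0.11 for Sec22 (0.0272) and -0.39 ± 0.11 for Ykt6 (0.0286). None of the 3 differed from control at the threshold in ITP-i.

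These 3 calls were lost in several fits without 1 library, which hold fewer samples. The log2 fold change of Syx5 was -0.388 without yki3SA library 2 and -0.386 without yki3SA library 3. That of Sec22 was -0.416 without yki3SA library 3, and that of Ykt6 moved to -0.289 without yki3SA library 1. Syx5 lost its call without any 1 of yki3SA libraries 1, 2 and 3 or ITP-i libraries 1 and 2 (edgeR adjusted p 0.0552 to 0.0877). The same libraries ended the call of Sec22 (0.0653 to 0.113). Ykt6 lost it without control library 3, yki3SA library 1 or 2, or any 1 ITP-i library (0.0546 to 0.109), and without both tumour libraries numbered 3 (0.0698). Upper-quartile scaling ended all 3 calls (adjusted p 0.0563 for Syx5, 0.0841 for Sec22 and 0.0583 for Ykt6), and a filter of at least 5 CPM in 3 libraries that of Sec22 (0.052). Their fitted differences stayed below 0 in every one of the 20 alternatives.

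Syx18, Sec20 and Use1 are SNAREs of retrograde traffic to the ER. Syx18, the syntaxin of that complex, had 10.6, 15.8 and 20.1 CPM in ITP-i, against 22.7, 25.5 and 27.5 CPM in yki3SA tubules and 15.2, 18.5 and 19.7 CPM in control libraries. ITP-i spread over more than the whole control range and stayed below yki3SA. Syx18 was called lower in ITP-i than in yki3SA (log2 fold change -0.70 ± 0.22, edgeR adjusted p 0.046), the weakest of the 10 calls. It was lost in 12 of 20 alternatives: without any 1 control or yki3SA library and without ITP-i library 1 or 2 (adjusted p 0.0585 to 0.12), with DESeq2 size factors (0.0574), upper-quartile scaling (0.0875), the 5 CPM filter (0.0591), or only the 2 groups (0.0651). Its complex partners Sec20 and Use1 averaged 4.32 ± 0.42 and 7.70 ± 0.74 CPM in ITP-i, against 6.37 ± 1.14 and 10.6 ± 1.87 CPM in yki3SA tubules and 4.48 ± 0.54 and 7.86 ± 1.51 CPM in control. Both had fitted differences of like size (-0.56 ± 0.22 for Sec20 and -0.45 ± 0.20 for Use1), but did not pass the test (edgeR adjusted p 0.0909 and 0.14). On the annotation, 45.1% of the exon bases of Sec20 overlap a transposable element and 19.7% of those of Use1 the gene Dhpr on the other strand, so both levels are uncertain.

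The remaining Golgi members were not called in either test. Gos28, a Golgi Q-SNARE, had 13.9, 14.6 and 21.2 CPM in ITP-i, against 22.7, 17.5 and 21.4 CPM in yki3SA tubules and 11.2, 11.6 and 11.1 CPM in control libraries. One ITP-i library lay within the yki3SA range and the others below it, and without that library (ITP-i 3) Gos28 was called lower in ITP-i than in yki3SA (log2 fold change -0.53, edgeR adjusted p 0.0452). Syx6 and Syx16, syntaxins of the trans-Golgi, averaged 37.9 ± 4.96 and 25.2 ± 0.33 CPM in ITP-i, against 39.2 ± 1.44 and 24.4 ± 1.79 CPM in yki3SA tubules and 29.9 ± 5.37 and 21.4 ± 1.92 CPM in control. Syx16 was the single member with a fitted value above 0 in ITP-i against yki3SA (0.04 ± 0.12, edgeR adjusted p 0.827), and its sign changed in 1 of 20 alternatives. Slh, the SM protein of Syx5, averaged 50.0 ± 3.78 CPM in ITP-i, 57.3 ± 4.43 CPM in yki3SA and 52.7 ± 1.21 CPM in control, with differences of -0.20 ± 0.10 from yki3SA (edgeR adjusted p 0.186) and -0.08 ± 0.10 from control (0.707).

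At the plasma membrane, nSyb, the synaptobrevin of synaptic vesicles, was the single member called lower in ITP-i than in control tubules. It had 7.65, 7.53 and 8.77 CPM in ITP-i, against 14.9, 13.5 and 13.3 CPM in yki3SA tubules and 13.6, 18.0 and 16.2 CPM in control libraries. Every ITP-i library was below all libraries of the other groups, and yki3SA overlapped control. nSyb was lower in ITP-i than in yki3SA (log2 fold change -0.80 ± 0.15, edgeR adjusted p 0.00632) and lower than in control (-0.997 ± 0.15, adjusted p 0.00228). Both calls held in all 20 alternatives. The difference of yki3SA from control was -0.20, and 0.08 with total-count scaling.

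The summed level of 14 neuron and enteroendocrine markers was 42.8 to 46.3 CPM in ITP-i, 87.6 to 127 CPM in yki3SA and 40.8 to 46.0 CPM in control libraries, with Dh31 below 0.5 CPM in every library. Orcokinin, a peptide gene of enteroendocrine cells, had 16.3, 20.7 and 20.6 CPM in ITP-i, against 108, 99.5 and 74.7 CPM in yki3SA, where it made up most of the sum, and 14.7, 14.9 and 10.8 CPM in control. elav, a marker of neurons, had 13.2, 6.69 and 9.99 CPM in ITP-i, against 8.05, 4.77 and 3.83 CPM in yki3SA tubules and 11.9, 9.93 and 9.04 CPM in control. The 2 markers of this list called in ITP-i against control were both peptide genes. CCHa2 had 3.93, 2.48 and 3.23 CPM in ITP-i, against 2.46, 2.04 and 2.16 CPM in yki3SA tubules and 9.73, 8.399 and 16.2 CPM in control, and was lower in ITP-i than in control (log2 fold change -1.83, edgeR adjusted p 0.00324). AstA had 3.50, 5.13 and 2.78 CPM in ITP-i, against 1.88, 1.28 and 1.56 CPM in yki3SA tubules and 1.27, 1.29 and 0.392 CPM in control, and was higher in ITP-i than in control (1.94, edgeR adjusted p 0.0262). The markers thus moved in different directions, and the part of neuron and enteroendocrine RNA in the nSyb values was not tested.

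Syb, the broadly expressed synaptobrevin, had 213, 206 and 197 CPM in ITP-i, against 278, 235 and 210.4 CPM in yki3SA tubules and 160.3, 166 and 143 CPM in control libraries. ITP-i overlapped yki3SA and lay above every control library. Neither difference of ITP-i passed the test (-0.23 ± 0.12 from yki3SA, edgeR adjusted p 0.207, and 0.39 ± 0.12 from control, 0.0749). With DESeq2, with total-count scaling and with a replicate block, Syb was called higher in ITP-i than in control (adjusted p 0.0442, 0.0148 and 0.0426). Per kilobase of annotated exons, nSyb made up 1.17 ± 0.14% of the nSyb and Syb level in ITP-i, 1.73 ± 0.14% in yki3SA and 3.01 ± 0.44% in control tubules. Those shares did not overlap between the groups, and Syb supplied nearly all of the synaptobrevin RNA in each.

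Among the SNAP-25 type genes, Snap24 and Snap29 were the expressed members. Snap24, the broadly used form at the plasma membrane, had 38.6, 42.9 and 41.4 CPM in ITP-i, against 55.8, 48.2 and 48.0 CPM in yki3SA tubules and 30.7, 39.4 and 36.1 CPM in control libraries. ITP-i lay below every yki3SA library and overlapped control. The difference from yki3SA was -0.31 ± 0.12 (edgeR adjusted p 0.0978). Snap25, the neuronal form, was close to the limit of detection, with 0.329, 0.204 and 0.141 CPM in ITP-i, against 0.6, 0.604 and 0.887 CPM in yki3SA tubules and 0.373, 0.161 and 0.452 CPM in control, where 3 counts correspond to 0.0502 to 0.0904 CPM. The yki3SA libraries were the highest, but the difference of ITP-i was not called (-1.62 ± 0.60, edgeR adjusted p 0.0816). Per kilobase, Snap25 was 0.254 ± 0.127% of the summed Snap24, Snap25 and Snap29 level in ITP-i, 0.62 ± 0.171% in yki3SA and 0.428 ± 0.198% in control.

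**Figure D4:**
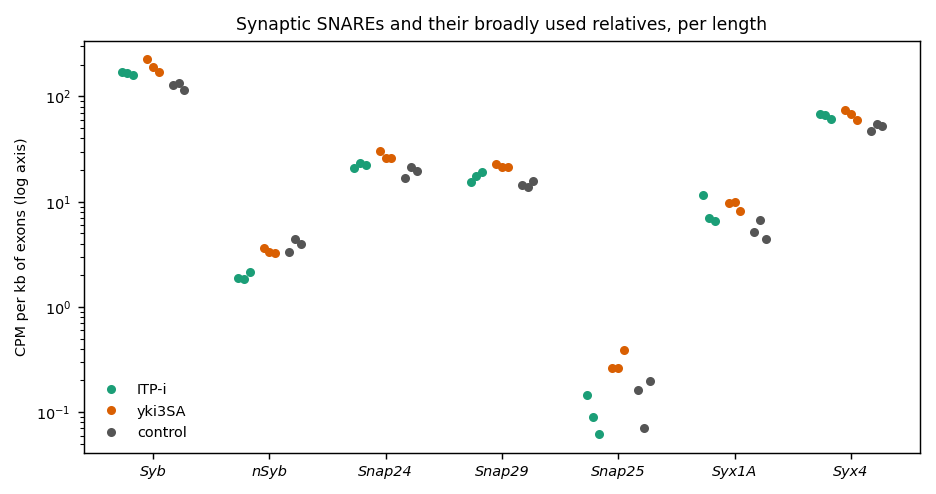
CPM per kilobase of annotated exons (log axis) for the synaptic SNAREs and their relatives, 1 point per library. Syb lies above nSyb and Snap24 and Snap29 above Snap25 by more than a factor of 10 in every library, and the ITP-i points of nSyb lie below those of both other groups.

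Syx1A, the plasma membrane syntaxin of regulated secretion, had 48.6, 29.4 and 27.4 CPM in ITP-i, against 40.4, 41.2 and 33.6 CPM in yki3SA tubules and 21.6, 28.0 and 18.4 CPM in control libraries. One ITP-i library exceeded all yki3SA libraries, and another overlapped control. The difference of ITP-i from control was 0.63 ± 0.23 (edgeR adjusted p 0.127). Syx4, a plasma membrane syntaxin of many cell types, had 117, 113 and 105 CPM in ITP-i, against 126, 116 and 103 CPM in yki3SA tubules and 79.7, 93.9 and 89.1 CPM in control libraries. Its ITP-i libraries overlapped yki3SA and all lay above control, and the difference from control was 0.35 ± 0.11 (edgeR adjusted p 0.082). The neighbour eIF4EHP shares 10.7% of the exon bases of Syx1A on the same strand and was higher in ITP-i than in control (log2 fold change 0.63, edgeR adjusted p 0.00753).

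Of the COPII genes, only Sec31 was called between ITP-i and yki3SA. Sec31, an outer coat subunit, had 88.7, 84.8 and 80.8 CPM in ITP-i, against 122, 137 and 124 CPM in yki3SA tubules and 83.7, 105 and 87.3 CPM in control libraries. The yki3SA libraries were the 3 highest, and ITP-i overlapped control. Sec31 was lower in ITP-i than in yki3SA (log2 fold change -0.59 ± 0.11, edgeR adjusted p 0.00652), in all 20 alternatives, and its difference from control was -0.12 ± 0.11 (adjusted p 0.587). Sec13, its partner in the outer coat, had 103, 100.4 and 108 CPM in ITP-i and 118, 103 and 100.1 CPM in yki3SA, with 95.1, 83.7 and 86.8 CPM in control. Sec13 overlapped between ITP-i and yki3SA (-0.05 ± 0.10, edgeR adjusted p 0.781).

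Sec23, the inner coat subunit that stimulates the Sar1 GTPase, averaged 191 ± 5.86 CPM in ITP-i, 227 ± 5.04 CPM in yki3SA and 180.1 ± 9.73 CPM in control. Its ITP-i libraries were all below yki3SA, but the difference was not called (-0.25 ± 0.09, edgeR adjusted p 0.0797). Sar1, the GTPase that starts COPII assembly, had 369, 338 and 350 CPM in ITP-i, against 388, 368 and 345 CPM in yki3SA tubules and 440.3, 418 and 459 CPM in control libraries. Both ITP-i and yki3SA lay below every control library, and they overlapped each other. The difference of ITP-i from control was -0.32 ± 0.10 (edgeR adjusted p 0.0797), and DESeq2 called it lower (0.00865). The difference of yki3SA from control was -0.26, and 0.03 with total-count scaling, so that its direction depended on the scaling.

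The COPI members had a median difference of -0.06 between ITP-i and yki3SA, the nearest to 0 of the 3 classes. No COPI gene was called by edgeR with TMM scaling, or by DESeq2, in ITP-i against yki3SA or against control, where the fitted values ran from -0.35 to -0.02 against yki3SA and from -0.005 to 0.28 against control. At an unadjusted p under 0.05, 2 of the 8 were lower in ITP-i than in yki3SA and 1 was higher than in control, and 3 were called lower with total-count scaling. The fitted values of betaCOP, beta'COP, gammaCOP, deltaCOP and Arf1 against yki3SA changed sign in at least 1 alternative. epsilonCOP, a coatomer subunit, had 84.1, 76.9 and 85.2 CPM in ITP-i, against 118, 96.7 and 86.5 CPM in yki3SA tubules and 67.4, 67.7 and 68.0 CPM in control libraries. zetaCOP, the smallest coatomer subunit, had 40.5, 36.9 and 41.0 CPM in ITP-i, against 57.3, 45.8 and 48.1 CPM in yki3SA tubules and 36.6, 33.3 and 31.2 CPM in control. In both genes the 3 groups were ordered yki3SA, ITP-i, control with no overlap. Their differences from yki3SA were -0.29 ± 0.12 (edgeR adjusted p 0.111) and -0.35 ± 0.12 (0.0607), and zetaCOP was called lower with a replicate block (0.0474).

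The other COPI genes stayed closer together. betaCOP, a subunit of the inner coat, had 173, 182 and 163 CPM in ITP-i, against 164, 198 and 172 CPM in yki3SA tubules and 169, 175 and 170 CPM in control libraries. Its groups overlapped fully. alphaCOP and beta'COP, which form the outer coat, averaged 160.2 ± 16.4 and 131 ± 7.90 CPM in ITP-i, against 187 ± 16.6 and 134 ± 8.18 CPM in yki3SA tubules and 161 ± 3.21 and 116 ± 8.13 CPM in control. gammaCOP and deltaCOP averaged 119 ± 6.67 and 138 ± 17.1 CPM in ITP-i, against 122 ± 6.81 and 145 ± 4.93 CPM in yki3SA tubules and 114.8 ± 6.44 and 132 ± 2.23 CPM in control. Arf1, the GTPase that recruits the coat, had 369 ± 18.1 CPM in ITP-i, 382 ± 39.6 CPM in yki3SA and 352 ± 15.1 CPM in control tubules. Over yki3SA against control, the 6 COPI genes other than epsilonCOP and zetaCOP had log2 fold changes of 0.06 to 0.22, against 0.57 and 0.58 for those named.

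The pathway column lists 20 SNARE genes, of which 17 are members. The other 3 are Syx8, Vti1b and Membrin, which are not members. Syx8, an endosomal Q-SNARE, averaged 18.6 ± 1.52 CPM in ITP-i, 27.8 ± 5.18 CPM in yki3SA and 17.0 ± 1.62 CPM in control. Vti1b averaged 14.0 ± 2.33 CPM in ITP-i, 23.6 ± 3.39 CPM in yki3SA and 12.8 ± 0.56 CPM in control. Membrin, a Golgi Q-SNARE, averaged 6.90 ± 0.91 CPM in ITP-i, 10.7 ± 1.03 CPM in yki3SA and 8.39 ± 0.69 CPM in control. All 3 were lower in ITP-i than in yki3SA, with log2 fold changes of -0.58, -0.76 and -0.63 (edgeR adjusted p 0.0267, 0.0108 and 0.026). The call of Vti1b held in all 20 alternatives. That of Syx8 was lost without yki3SA library 1 or any 1 ITP-i library (adjusted p 0.0636 to 0.0829), and that of Membrin without yki3SA library 1 or 3 or ITP-i library 1 or 3 (0.061 to 0.107). Both calls were also lost without both tumour libraries numbered 3 (edgeR adjusted p 0.065 for Syx8 and 0.118 for Membrin). With no filter Membrin was not called either (0.0554). These 3 genes were named after their values had been seen. They belong to the column whose higher values in yki3SA led to the choice of members. A low ITP-i value relative to yki3SA is in part a property of that choice for them too.

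Other genes of membrane traffic were counted in 7 lists. In ITP-i against yki3SA, the SNARE partners and regulators had 5 of 17 genes lower and 1 higher, where 10.1% of all genes tested were lower and 10.6% higher. The 17 include Syx8 and Membrin, described above as SNAREs of the pathway column by which the members were chosen, and without them 3 of 15 were lower and 1 higher. The count of 5 fell to 0 without yki3SA library 1 or ITP-i library 1, and to 2 or 3 without any other 1 yki3SA or ITP-i library. Rop, the SM protein of the plasma membrane syntaxins, had 139 ± 10.1 CPM in ITP-i and 192 ± 17.5 CPM in yki3SA (log2 fold change -0.46, edgeR adjusted p 0.0169), and alphaSnap, the adaptor that takes spent SNARE complexes apart with NSF, had 74.2 ± 2.88 CPM in ITP-i and 100.5 ± 12.5 CPM in yki3SA (-0.44, 0.0196). unc-13, a factor that primes synaptic vesicles, was higher, with 22.0 ± 3.31 CPM in ITP-i and 12.8 ± 2.99 CPM in yki3SA (0.78, edgeR adjusted p 0.0246). The call of Rop was lost without yki3SA library 1 or 2 or ITP-i library 1 (adjusted p 0.0585 to 0.0692), that of alphaSnap without yki3SA or ITP-i library 1 or 2 (0.0535 to 0.0802), and that of unc-13 without yki3SA library 1 or 2 or ITP-i library 1 or 3 (0.0532 to 0.0969) and with total-count scaling (0.0852).

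Syt4, a synaptotagmin, was far above control in both other groups. It had 28.4, 26.5 and 24.5 CPM in ITP-i, against 27.2, 29.7 and 28.5 CPM in yki3SA tubules and 0.298, 1.53 and 0.633 CPM in control libraries. The ITP-i and yki3SA libraries overlapped (ITP-i against yki3SA -0.10 ± 0.34, edgeR adjusted p 0.864). Syt4 was higher than in control in both ITP-i (log2 fold change 5.01 ± 0.43, edgeR adjusted p 8.66e-05) and yki3SA (5.11 ± 0.43, 4.02e-05), in all 20 alternatives. Tomosyn, an inhibitor of SNARE pairing, averaged 197 ± 34.8 CPM in ITP-i, 166 ± 14.2 CPM in yki3SA and 97.1 ± 19.3 CPM in control, and was higher than in control in ITP-i (1.02, edgeR adjusted p 0.00413) and in yki3SA (0.78, 0.00762). gammaSnap1 averaged 15.9 ± 0.86 CPM in ITP-i, 25.5 ± 2.10 CPM in yki3SA and 9.37 ± 2.81 CPM in control, with calls in all 3 comparisons. In ITP-i against control, 5 of the 17 SNARE partners were higher by edgeR and none lower, where 6.37% of all genes tested were higher and 4.14% lower, and without 1 library the count was 2 to 4. In yki3SA against control 8 were higher, Syx8 among them, and none lower, where 16.2% and 14% of all genes tested were. In each of these comparisons 1 was lower at an unadjusted p under 0.05 and 1 by DESeq2.

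The Rab list holds Rab GTPases, the switches that direct vesicles to their targets, and the regulators Rabex-5 and Gdi. Of its 27 genes tested, 6 were lower in ITP-i than in yki3SA and none was higher by edgeR, with 1 higher at an unadjusted p under 0.05 and 1 by DESeq2. Of all genes tested 10.1% were lower and 10.6% higher, and without 1 library 2 to 5 genes of the list were lower. Rab2, which acts at the Golgi and on the way to the lysosome, had 140.0, 131 and 135 CPM in ITP-i, against 256, 218 and 195 CPM in yki3SA tubules and 120.1, 115.1 and 120.4 CPM in control libraries. Rab1, which acts between ER and Golgi, had 55.3, 54.1 and 50.4 CPM in ITP-i, against 92.1, 76.2 and 68.5 CPM in yki3SA tubules and 46.6, 45.1 and 44.7 CPM in control. In both, the 3 groups did not overlap and ITP-i lay between the others. They were lower in ITP-i than in yki3SA (-0.72, edgeR adjusted p 0.00257, and -0.57, 0.00966) in all 20 alternatives. In yki3SA against control 12 genes of the Rab list were higher and 1, Rab9, was lower (-0.73, edgeR adjusted p 0.0179), where 16.2% of all genes tested were higher and 14% lower. Rab10, a Rab of secretion, was higher than in control in ITP-i (0.48, edgeR adjusted p 0.0154) and in yki3SA (0.96, 0.000144), and RabX1 was higher by 1.67 in ITP-i (adjusted p 0.000547) and by 1.80 in yki3SA (0.000164). The call of Rab9 was lost without control library 2 or yki3SA library 3 (adjusted p 0.0526 and 0.0569), and that of Rab10 in ITP-i when control library 1 or 3, or library 1 or 2 of ITP-i, was left out (0.0655 to 0.0791). With total-count scaling Rab9 was not called either (-0.45, edgeR adjusted p 0.0699), nor without both tumour libraries numbered 3 (0.0607).

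Among the tethers, which hold vesicles before SNAREs pair, 5 of 14 exocyst and HOPS genes were lower in ITP-i than in yki3SA and none was higher, also at an unadjusted p under 0.05 and by DESeq2. Of 29 Golgi tether, COG and TRAPP genes 5 were lower and 1 was higher, a share of 17.2% lower. Of all genes tested 10.1% were lower. The count of exocyst and HOPS genes was 0 without yki3SA library 2 or ITP-i library 1, 1 to 4 without any other 1 library and 1 with upper-quartile scaling, and that of Golgi tethers was 1 without ITP-i library 1, 2 without ITP-i library 2 and 3 without any 1 yki3SA library. Exo70, an exocyst subunit, had 10.9 ± 0.57 CPM in ITP-i and 17.1 ± 1.64 CPM in yki3SA (log2 fold change -0.66, edgeR adjusted p 0.0135), and lt, the HOPS subunit Vps41, had 52.0 ± 0.84 CPM in ITP-i and 67.4 ± 2.502 CPM in yki3SA (-0.38, 0.0238). The call of Exo70 was lost without yki3SA library 2 or ITP-i library 1 (adjusted p 0.0561 and 0.0628), and that of lt without any 1 yki3SA library or ITP-i library 1 or 2 (0.0594 to 0.0853). Upper-quartile scaling also ended the call of lt (edgeR adjusted p 0.0532). Without both tumour libraries numbered 3, neither gene was called (edgeR adjusted p 0.0509 for Exo70 and 0.0872 for lt). Golgin97, a tether of the trans-Golgi, had 18.0 ± 1.12 CPM in ITP-i and 27.9 ± 2.45 CPM in yki3SA (-0.64, edgeR adjusted p 0.00533), in all 20 alternatives. Grasp65, a Golgi stacking protein, had 80.2 ± 2.72 CPM in ITP-i and 64.3 ± 2.11 CPM in yki3SA (0.32, edgeR adjusted p 0.035), a call lost in 10 of 20 alternatives, among them each fit without 1 yki3SA or ITP-i library (0.058 to 0.129). With total-count scaling the log2 fold change of Grasp65 was 0.12 (edgeR adjusted p 0.367). In yki3SA against control, 4 exocyst and HOPS genes were higher and none lower, also by DESeq2, and 6 Golgi tethers were higher and 1, Cog7, was lower, where 16.2% of all genes tested were higher. Without 1 library these counts were 1 to 4 and 2 to 7. Against control, ITP-i had no call among the exocyst and HOPS genes by edgeR, by DESeq2 or at an unadjusted p under 0.05, and 1 lower Golgi tether, again Cog7 (-0.49, edgeR adjusted p 0.0145), a call lost without control library 3 or ITP-i library 1 (0.0509 and 0.0627). Total-count scaling also ended that call of Cog7 (edgeR adjusted p 0.0544), as did leaving out both tumour libraries numbered 3 (0.0508).

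The lists of coat-associated genes held few calls in ITP-i against yki3SA. Of 14 other COPII, cargo receptor and ER exit genes 1 was higher, the cargo receptor cni (log2 fold change 0.54, edgeR adjusted p 0.0212), and none lower, with 1 lower at an unadjusted p under 0.05. The call of cni was lost without yki3SA library 2 or 3 or ITP-i library 1 (adjusted p 0.0577 to 0.0886), and without both tumour libraries numbered 3 (0.0774). By edgeR, as by DESeq2, none of 11 Arf family and regulator genes was called, with 4 lower and 1 higher at an unadjusted p under 0.05. Of 16 clathrin and adaptor genes 1 was lower, the dynamin shi (-0.33, edgeR adjusted p 0.0454), a call lost in 16 of 20 alternatives, among them each fit without 1 library (0.0662 to 0.166). In yki3SA against control, the other COPII list had 1 gene higher and 3 lower, the Arf list 3 higher and 1 lower, and the clathrin list 4 higher and none lower, also by DESeq2, where 16.2% of all genes tested were higher and 14% lower. Among the named genes, Arf4 was higher (0.71, edgeR adjusted p 0.00176), as was the clathrin light chain Clc (0.59, 0.0077), and the p24 cargo receptor opm was lower (-1.16, 0.0025). Of the 3 lists, the clathrin list alone had an edgeR call in ITP-i against control, the adaptor subunit cm (0.63, edgeR adjusted p 0.00605). DESeq2 also called 1 gene of the other COPII list lower there. The medians in ITP-i against yki3SA were -0.10 for the SNARE partners, -0.26 for the Rab list, -0.23 for exocyst and HOPS, -0.21 for the Golgi tethers, -0.23 for the Arf list, -0.20 for clathrin and -0.04 for the other COPII list, against -0.39 for the SNARE and Slh members and -0.04 for all genes tested.

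**Figure D5:**
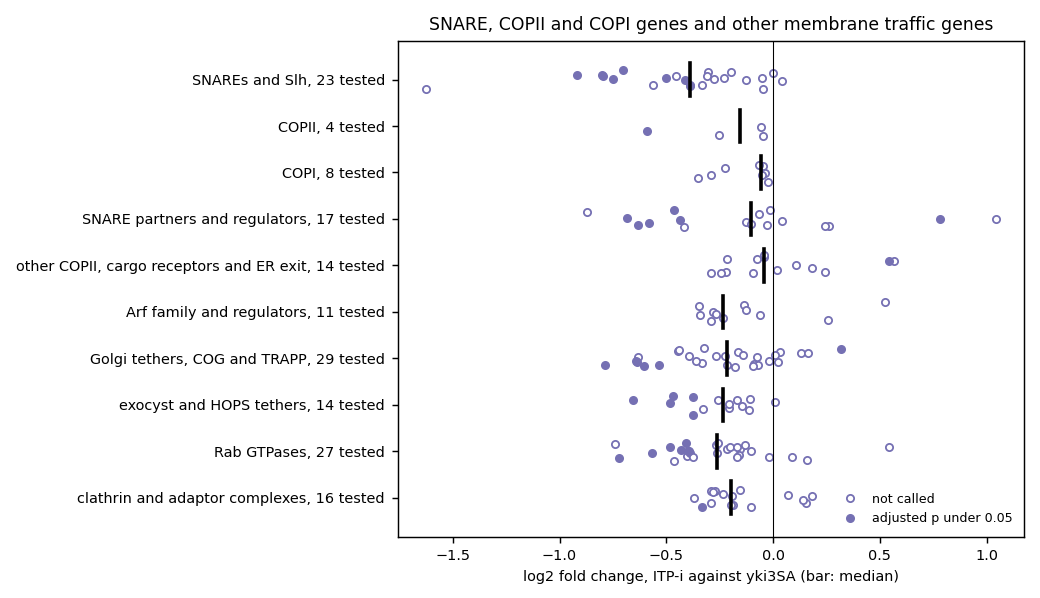
Log2 fold change of ITP-i against yki3SA (x axis) for the tested genes of the SNARE, COPII and COPI members and of the 7 other lists, with 1 point per gene, filled at an adjusted p under 0.05, and a bar at the median. The SNARE points reach furthest below 0 with 9 filled. The lowest of them, Snap25, is not filled and was close to the limit of detection. The COPI points gather near 0 with none filled, and the SNARE partner, Rab and tether lists each have 5 or 6 filled points below 0.

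Gene length was set beside the values. Over the 35 members, Spearman's rho between annotated exon length and log2 fold change was -0.53 in yki3SA against control, where the members were chosen, 0.26 in ITP-i against yki3SA and -0.47 in ITP-i against control. Over all genes tested that have an annotated length, the same values were 0.006, 0.05 and 0.07. With coding length in place of exon length, rho over the members was -0.37 in yki3SA against control, 0.36 in ITP-i against yki3SA and -0.165 in ITP-i against control. Over all genes tested that have a coding length, these values were -0.007, 0.05 and 0.04. These correlations are across genes, which are not independent replicates and share the same 9 libraries, and they are given as a description. The 5 members with the shortest annotated exons are Gos28, Use1, Bet1, epsilonCOP and Vamp7, and the 5 with the longest are Slh, Syx1A, Sec31, alphaCOP and nSyb. In each comparison rho over the members had the same sign with either length, but its size differed. The part of gene length in the differences between the classes was not tested.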

How the data were processed

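Polyadenylated RNA of whole Malpighian tubules was sequenced on an Illumina instrument from TruSeq libraries, per the labels' protocols. The deposited table gives whole-number read counts by gene for each library, which the authors had not normalized. Per the submitters' processing notes the tools were TopHat, Cufflinks, HTSeq and DESeq, without version, role or order. Genome build, annotation and strand setting: not given in the sources used here. Counts of overlapping genes can therefore hold each other's reads.

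Genes were tested in R 4.3.3 with edgeR 4.0.16: filterByExpr, TMM factors, 1 fit of all 9 libraries with a term for group (residual degrees of freedom: 6), its quasi-likelihood F-test, and Benjamini-Hochberg adjustment over the 10253 genes tested, with a call at an adjusted p under 0.05. The SE is the size of the log2 fold change over the square root of F, and the prior count was 0.125. Total counts were 34640437 to 49338340, and floors of 3 counts cover counting error only. The test was also run on simulated data at the depth of these libraries. It made few false calls and its median estimates were close to the simulated folds, but it missed most changes of the smallest size tried. The simulated folds were enlarged, and the recovery asked for was moved to the larger fold, after a first run fell short of it. A difference of under 2-fold that missed the threshold is therefore not shown to be absent.

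The members, the gene lists and the alternatives were chosen with earlier results of these data known. Of the pathway names 132 of 134 were found in the table, and of the marker names 73 of 75. Named genes are all members, and for each list up to 2 higher and 2 lower genes with the smallest p per comparison. The counts of genes without overlap, the shares per kilobase and the relation with length were added after values had been seen. Exon lengths and overlaps come from the Ensembl BDGP6.54 annotation, which may not be the authors' build, so no coordinates are given. The planned look at protein and promoter sequences was not made.

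There were 20 alternatives per comparison: DESeq2 1.42.0, limma-voom (limma 3.58.1), DESeq2 size factors in edgeR, scaling by upper quartiles or by total counts, robust dispersion, no filter on low counts, a filter of 5 CPM in at least 3 libraries, only the 2 groups compared, a replicate block, each library left out in turn, and both tumour libraries numbered 3 left out. Tables and plots were made in Python 3.11.15 (pandas 2.3.3, numpy 2.4.6, matplotlib 3.10.9).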

Additional observations from a re-analysis of the deposited data

How the results depend on the processing

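Leaving out 1 library in turn gave 5 to 9 members lower in ITP-i than in yki3SA (10 with all libraries), 0 to 1 member higher in ITP-i than in control (1) and 11 to 18 members higher in yki3SA than in control (17), where the members were chosen, so that this range shows nothing of stability. Over all genes tested, leaving out 1 library gave 622 to 1138 genes higher (1089) and 406 to 909 lower (1037) in ITP-i against yki3SA, 422 to 642 higher (653) and 220 to 453 lower (424) in ITP-i against control, and 1045 to 1678 higher (1659) in yki3SA against control. Without both tumour libraries numbered 3, 8 members were lower in ITP-i than in yki3SA, 619 of all genes were lower in that comparison, and 0 members were higher in ITP-i than in control. With total-count scaling 21 members were lower in ITP-i than in yki3SA, 3 were higher in ITP-i than in control and 32 were higher in yki3SA than in control. The same scaling gave 2243 of all genes lower in ITP-i against yki3SA, and 3285 higher and 931 lower in yki3SA against control, and it moved the median of all genes to -0.24, 0.09 and 0.37 in ITP-i against yki3SA, ITP-i against control and yki3SA against control. Upper-quartile scaling gave 6 members lower in ITP-i than in yki3SA, 0 higher in ITP-i than in control and 1 lower in yki3SA than in control. DESeq2 gave 2 members higher and 2 lower in ITP-i than in control, 1 lower in yki3SA than in control and 727 of all genes lower in ITP-i against control. DESeq2 size factors in edgeR, no filter, and only the 2 groups compared each gave 0 members higher in ITP-i than in control, and the filter of at least 5 CPM in 3 libraries gave 1 member lower in yki3SA than in control. The causes were not tested, except that fits without libraries hold fewer samples.

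Deviations of same-numbered libraries from their group means correlated at -0.08 to 0.17, and those of differently numbered libraries at -0.26 to 0.14. Those ranges overlapped. The main fit did not pair the samples by number, and these values do not exclude a pairing. With the replicate block, 11 members were lower in ITP-i than in yki3SA, 1 was higher and 1 lower in ITP-i than in control, and 19 were higher in yki3SA than in control. Counts over all genes tested are not given here for this block, so no change of the members is read from these counts.

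Of 240 recomputed counts over the members and over all genes, 195 stayed within 1.5 times their value and 45 did not. Of 1440 recomputed counts of the other lists, 212 did not. Of 3057 recomputed values of named genes, 164 lost their call and 22 gained one, 53 member values of yki3SA against control moved by over 1 SD, and none of the called values changed sign. Uncalled values near 0 did: 12 members changed sign in 44 fits of ITP-i against yki3SA, none of them beyond 0.129 in size with TMM scaling, and Syx13 alone did so in 12 of 20. So did 11 members in 30 fits of ITP-i against control (up to 0.195) and 3 members in 4 fits of yki3SA against control (up to 0.259). At this depth all members except Snap25 were far above the level of 3 counts.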
